A study of Mus musculus with 56 samples.

Results

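Expression of 8 myeloid C-type lectin genes, Cd209a, Clec10a, Clec12a, Clec4a1, Clec4a2, Clec4a3, Clec5a and Clec7a, was followed in sorted mouse bone marrow progenitors by RNA-seq. The genes were taken by symbol from a table of 24424 genes, and all 8 were found. Mutant mice, called T2F3, had the genotype Tet2-/-Flt3ITD: Tet2, whose product oxidizes methylated cytosine, was deleted, and the cytokine receptor gene Flt3 held an internal tandem duplication. They were set against WT mice, and all mice were of the C57BL/6 strain. Multipotent progenitors (MPP) were sorted as lineage-negative cells that lacked CD150 but had Sca-1, c-Kit and CD48. The GMP, or granulocyte-macrophage progenitors, were sorted as lineage-negative cells that lacked Sca-1 but had c-Kit, CD34 and CD16/32. There were 3 T2F3 MPP, 4 WT MPP, 3 T2F3 GMP and 5 WT GMP libraries. Age, treatment and whether animals were pooled are not given in the sources used here. Both alterations were present together in every T2F3 library, so their separate effects cannot be told apart.

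C-type lectin receptors sit on the surface of myeloid cells and bind sugars or other ligands through a shared fold. Some activate the cell: Clec7a (Dectin-1) binds fungal beta-glucan and signals through the kinase Syk and the adaptor Card9, and Clec5a pairs with the adaptor DAP12, encoded by Tyrobp. Others carry an inhibitory tyrosine motif, as Clec12a and Clec4a2 (DCIR) do, and Clec10a (MGL1) and Cd209a, a mouse relative of human DC-SIGN, take up glycan-bearing ligands. In bone marrow these genes are known mainly from monocytes, macrophages, dendritic cells and neutrophils and their precursors.

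The 8 genes fell into patterns that are shown here with the start regions of 5 of them. Cd209a, Clec4a1 and Clec4a3 were higher in T2F3 in both populations and passed no test between populations. Clec5a and Clec4a2 were higher in GMP in both genotypes and passed no test between genotypes. The sequences are RefSeq promoter windows of the GRCm38.p6 build, from 250 bases before to 50 after the start, printed in the direction of the gene. They lie at chr8:3748935-3749234 (minus strand) for Cd209a, chr6:122921598-122921897 (plus strand) for Clec4a1 and chr6:122952394-122952693 (plus strand) for the second listed start of Clec4a3. Those of the other pair lie at chr6:40585756-40586055 (minus strand) for Clec5a and chr6:123122440-123122739 (plus strand) for Clec4a2. Capitals mark matches to GAGGAA, the core letters of many PU.1 sites, or to the STAT-type spacing TTCNNNGAA, searched on both strands.
Cd209a: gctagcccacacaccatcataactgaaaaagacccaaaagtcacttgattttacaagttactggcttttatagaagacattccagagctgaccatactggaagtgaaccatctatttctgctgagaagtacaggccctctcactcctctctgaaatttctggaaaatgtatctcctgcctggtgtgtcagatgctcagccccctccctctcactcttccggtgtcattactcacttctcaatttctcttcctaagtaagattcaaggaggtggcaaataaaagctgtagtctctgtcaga
Clec4a1: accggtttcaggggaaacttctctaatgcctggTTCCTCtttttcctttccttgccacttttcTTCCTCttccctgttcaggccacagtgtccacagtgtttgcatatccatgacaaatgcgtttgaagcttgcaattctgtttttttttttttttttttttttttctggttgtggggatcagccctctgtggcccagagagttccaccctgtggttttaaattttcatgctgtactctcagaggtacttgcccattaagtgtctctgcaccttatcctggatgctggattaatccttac
Clec4a3: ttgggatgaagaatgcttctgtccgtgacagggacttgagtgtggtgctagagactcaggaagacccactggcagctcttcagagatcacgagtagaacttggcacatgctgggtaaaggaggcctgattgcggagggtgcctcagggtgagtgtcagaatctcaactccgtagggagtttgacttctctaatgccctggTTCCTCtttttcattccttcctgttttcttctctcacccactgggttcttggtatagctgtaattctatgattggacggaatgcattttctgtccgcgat
Clec5a: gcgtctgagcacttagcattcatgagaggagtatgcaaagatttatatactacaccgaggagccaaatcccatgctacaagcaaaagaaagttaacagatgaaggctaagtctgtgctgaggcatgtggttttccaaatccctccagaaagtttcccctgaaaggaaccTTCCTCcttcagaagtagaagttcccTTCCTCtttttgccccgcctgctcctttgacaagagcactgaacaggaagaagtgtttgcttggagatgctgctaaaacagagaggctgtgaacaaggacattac
Clec4a2: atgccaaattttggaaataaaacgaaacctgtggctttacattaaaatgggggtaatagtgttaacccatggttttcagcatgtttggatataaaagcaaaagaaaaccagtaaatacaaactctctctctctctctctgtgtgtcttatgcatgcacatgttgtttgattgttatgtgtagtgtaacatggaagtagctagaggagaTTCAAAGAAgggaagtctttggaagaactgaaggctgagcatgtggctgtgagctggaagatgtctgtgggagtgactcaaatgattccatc

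Entries were found for 7 of the 8 genes, in 9 windows. GAGGAA, or TTCCTC on the other strand, was present in 6 of these 9 windows, 2 of which are the overlapping windows of Clec7a, and in 28.3% of all 32851 promoter windows. Clec5a, Clec12a and Clec4a1 had 2 matches each and Clec7a had 1, as did the second start of Clec4a3. The window of the first Clec4a3 start, which overlaps that of the second and is not printed here, had 0. The STAT-type letters were present only in the Clec4a2 window among these 9, and in 8.3% of all windows. An IRF-type pattern (a pair of spaced GAAA repeats) had 0 matches in the 9 windows and was in 3.44% of all windows. The longest run of letters shared between the windows of different genes was 17 bases, CCTGGTTCCTCTTTTTC, in Clec4a1 and the second start of Clec4a3, and the next longest was 12. The Cd209a window held none of the 3 patterns.

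Levels are the deposited log2 values, whose file name marks them as regularized log values, a scale on which genes with few reads are pulled toward their mean. Each value is comparable between libraries for a given gene, but not between genes, since length was not taken into account. No counts are held in the table, which leaves the read depth unknown. Genes with a mean of at least 4 were tested with limma, 12133 in all, with Benjamini-Hochberg adjustment over all of them and a threshold of 0.05. All 8 lectin genes were tested, but Clec4a1 and Clec4a3 had WT group means under 4 and were kept through their T2F3 values. The labels do not say that libraries came from different animals. The p-values therefore reflect only the variation among these libraries, which may be technical. In bulk samples, more cells of a type and more RNA per cell cannot be told apart.

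The targeted genes and the gates were checked first. Tet2 stood at 9.75 ± 0.13 in T2F3 MPP (SD, n = 3) and 9.79 ± 0.08 in WT MPP (SD, n = 4), and at 10.12 ± 0.21 in T2F3 GMP (SD, n = 3) and 10.06 ± 0.13 in WT GMP (SD, n = 5). Such values cannot show whether part of the gene was removed. Flt3 was at 11.32 ± 0.09 in T2F3 MPP and 11.38 ± 0.10 in WT MPP, and at 10.09 ± 0.33 in T2F3 GMP and 8.81 ± 0.07 in WT GMP (SD). Its log2 difference, T2F3 minus WT, was -0.06 in MPP (adjusted p = 0.685) and 1.28 in GMP (adjusted p = 8.23e-07). Ly6a, which encodes Sca-1, was at 7.61 in T2F3 GMP and 8.32 in T2F3 MPP, and at 7.12 in WT GMP and 7.70 in WT MPP. Fcgr3, which encodes CD16, was at 10.74 in T2F3 GMP and 8.86 in T2F3 MPP, and at 11.01 in WT GMP and 8.89 in WT MPP. Sca-1 transcripts thus lay on the side that the gates call for in both genotypes. CD16 transcripts were higher in GMP, whose gate calls for that marker. Cd34, another gate gene of GMP, was lower in GMP, at 11.42 in T2F3 GMP and 12.44 in T2F3 MPP. In WT it was at 11.47 in GMP and 12.58 in MPP. The MPP gate uses neither CD16 nor CD34, so the gates call for no order of these transcripts between populations. Cd48, a gate gene of MPP, was itself higher in T2F3, by 1.53 in MPP and 0.69 in GMP (log2 differences, adjusted p = 6.70e-06 and 0.0100). Ly6a was higher in T2F3 by 0.63 in MPP and 0.49 in GMP (adjusted p = 7.70e-04 and 0.00655), and Kit, which encodes c-Kit, was at 11.38 in T2F3 MPP and 12.30 in WT MPP, a difference of -0.92 (adjusted p = 1.63e-04). The part of these gate genes in the lectin results was not tested.

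Some libraries stood apart within their group. Ribosomal protein genes (76 tested) deviated from the remaining libraries of the group by a median of 0.84 in T2F3 GMP 2, -0.64 in T2F3 GMP 3 and 1.09 in WT GMP 1 (log2). T2F3 MPP 2 held the highest value of its group for all 8 lectin genes, with a median deviation of 0.59, and its ribosomal deviation was -0.02. That library was also the highest of its group in the summed level of conventional dendritic cell (16.14), monocyte and macrophage (15.30), plasmacytoid dendritic cell (8.17) and late neutrophil markers (14.77). It was highest in the B cell (8.53) and erythroid sums (6.32) too, and lowest in the T and NK cell sum (10.75). T2F3 GMP 2 held the highest value of its group for 7 of the 8, with a median deviation of 0.63. It was highest in the monocyte and macrophage (16.29), late neutrophil (18.63), conventional dendritic cell (15.06) and plasmacytoid dendritic cell sums (7.03). The same held for its B cell (8.66) and erythroid sums (6.43), but not for its T and NK cell sum (11.81). The part of these markers in the 2 libraries' lectin values was not tested. Between genotypes, the median difference of the ribosomal protein genes was 0.72 in MPP and 0.27 in GMP, T2F3 minus WT. The mean ribosomal level of each library was also added to the model, and the value is given beside each genotype or population difference whose call, sign or, where called, size (by over 1.5 times) it changed.

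**Figure D1:**
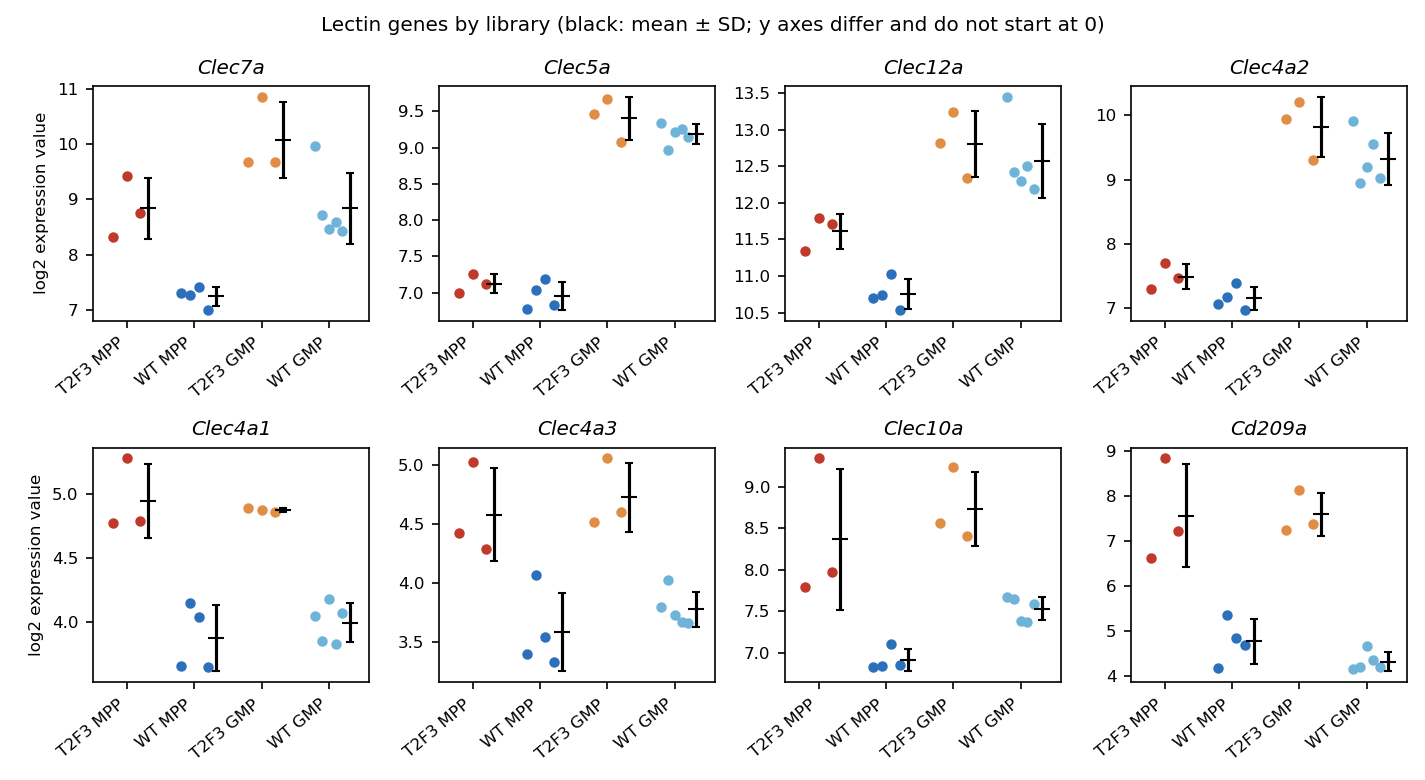
Log2 expression of each of the 8 lectin genes in every library (points) with the mean ± SD of each group (black bars), for T2F3 MPP, WT MPP, T2F3 GMP and WT GMP. Cd209a separates the genotypes, at 6.62 to 8.83 in T2F3 MPP and 4.17 to 5.36 in WT MPP, whereas Clec5a separates the populations, with every GMP library at 8.96 or above and every MPP library at 7.26 or below.

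The first question was how the T2F3 genotype changed these genes in each population. In MPP, 6 of the 8 rose, and none fell: Cd209a, Clec7a, Clec10a, Clec4a1, Clec4a3 and Clec12a. Of all tested genes, 20.7% rose in T2F3 MPP; of those that passed, 51.3% were higher, or 40.2% after each library was centred on its median and 42.3% after quantile normalization. The same 6 genes had every T2F3 MPP library above every WT MPP library, which held for 28.1% of all tested genes. In GMP, 5 of the 8 rose, Clec12a not being among them, against 9.25% of all tested genes. Groups lay apart in GMP for 4 genes, Cd209a, Clec10a, Clec4a1 and Clec4a3, against 9.52% of all tested genes. The median log2 difference of the 8 genes was 1.03 in MPP and 0.92 in GMP, against -0.02 over all tested genes in either population. Clec4a1 and Clec4a3 are in all of these counts and medians. Since they were kept in the test through their T2F3 values, they are not independent support for higher levels in T2F3.

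Cd209a, the DC-SIGN relative, had the largest genotype difference of the 8 in both populations. Its levels were 6.62, 8.83 and 7.21 in T2F3 MPP, against 4.17, 5.36, 4.84 and 4.70 in WT MPP. In GMP they were 7.25, 8.13 and 7.37 in T2F3, against 4.15, 4.19, 4.67, 4.35 and 4.21 in WT. Every T2F3 library lay above every WT library, T2F3 MPP 2 and T2F3 GMP 2 being the highest of their groups. Cd209a was 6.90-fold higher in T2F3 MPP (log2 difference 2.79 ± 0.39, SE, adjusted p = 5.50e-05) and 9.64-fold higher in T2F3 GMP (3.27 ± 0.37, SE, adjusted p = 9.69e-06). Over the alternatives that tested it, the log2 difference ranged between 2.15 and 3.25 in MPP and between 2.84 and 3.43 in GMP, and every one passed. The group means ran in the order T2F3 GMP (7.58 ± 0.48, SD), T2F3 MPP (7.55 ± 1.14), WT MPP (4.77 ± 0.49) and WT GMP (4.31 ± 0.21). Within each genotype the populations overlapped.

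Clec10a, the galactose-type receptor MGL1, was the other glycan-uptake receptor. It stood at 7.79, 9.35 and 7.97 in T2F3 MPP, against 6.83, 6.84, 7.10 and 6.85 in WT MPP. In GMP the values were 8.56, 9.24 and 8.40 in T2F3, against 7.67, 7.65, 7.39, 7.37 and 7.58 in WT. The genotypes did not overlap in either population, although T2F3 MPP 2 was well above the other libraries of its group. The log2 difference was 1.47 ± 0.27 (SE) in MPP, a 2.76-fold higher level in T2F3 (adjusted p = 8.24e-04), and 1.20 ± 0.26 in GMP, a 2.30-fold higher level (adjusted p = 0.00482). Without T2F3 MPP 2 the MPP difference was 0.98 (adjusted p = 0.00146). Without both T2F3 GMP 2 and WT GMP 1, the GMP difference was 0.99 with an adjusted p of 0.0692. In order, the group means were T2F3 GMP (8.74 ± 0.44, SD), T2F3 MPP (8.37 ± 0.85), WT GMP (7.53 ± 0.14) and WT MPP (6.90 ± 0.13), with the T2F3 groups overlapping each other.

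Clec7a, the beta-glucan receptor Dectin-1, differed by genotype and by population. T2F3 MPP libraries held 8.33, 9.43 and 8.76, against 7.31, 7.28, 7.40 and 7.00 in WT MPP. T2F3 GMP libraries held 9.67, 10.86 and 9.69, against 9.98, 8.72, 8.46, 8.59 and 8.43 in WT GMP. In MPP the genotypes lay apart, whereas in GMP the library WT GMP 1 reached above 2 of the 3 T2F3 libraries. The difference was 1.59 ± 0.35 (SE) in MPP, or 3.02-fold (adjusted p = 0.00276), and 1.24 ± 0.34 in GMP, or 2.36-fold (adjusted p = 0.0197). The GMP call was lost without T2F3 GMP 2 (0.84, adjusted p = 0.141) and with the GMP libraries fitted alone (adjusted p = 0.0673). With the ribosomal level in the model, the MPP difference was 0.63 (adjusted p = 0.0773). The means of T2F3 MPP (8.84 ± 0.56, SD) and WT GMP (8.84 ± 0.65) lay between T2F3 GMP (10.07 ± 0.68) and WT MPP (7.25 ± 0.17).

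Clec4a1 and Clec4a3 belong to the mouse DCIR family and are neighbours, so shared reads between these paralogs, and with Clec4a2 and Clec4a4, cannot be separated from their own. Clec4a1 was at 4.77, 5.28 and 4.79 in T2F3 MPP, against 3.66, 4.15, 4.04 and 3.64 in WT MPP. In GMP it was at 4.89, 4.87 and 4.86 in T2F3, against 4.04, 3.85, 4.18, 3.82 and 4.06 in WT. All T2F3 libraries lay above all WT libraries, with little spread in T2F3 GMP. The group means were 4.94 ± 0.29 in T2F3 MPP, 4.87 ± 0.01 in T2F3 GMP, 3.99 ± 0.15 in WT GMP and 3.87 ± 0.26 in WT MPP (SD), and the populations overlapped within each genotype. The differences between genotypes were 1.07 ± 0.16 (SE, adjusted p = 1.16e-04) in MPP and 0.88 ± 0.15 (SE, adjusted p = 8.38e-04) in GMP.

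Clec4a3 was at 4.42, 5.03 and 4.29 in T2F3 MPP, against 3.40, 4.07, 3.55 and 3.33 in WT MPP. Its GMP values were 4.52, 5.06 and 4.60 in T2F3, against 3.79, 4.03, 3.73, 3.67 and 3.66 in WT. Again the genotypes lay apart in both populations, while MPP and GMP overlapped within each genotype. T2F3 exceeded WT by 0.99 ± 0.21 (SE, adjusted p = 0.00175) in MPP and by 0.95 ± 0.20 (SE, adjusted p = 0.00324) in GMP. Both genes lie near the low end of the tested range, where a regularized log scale can understate differences. Both kept their genotype calls in every alternative that tested them, having entered the test through their T2F3 values.

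Clec12a, an inhibitory receptor, showed a smaller genotype difference. It was at 11.34, 11.80 and 11.71 in T2F3 MPP, against 10.70, 10.75, 11.03 and 10.54 in WT MPP. In GMP it was at 12.82, 13.25 and 12.34 in T2F3, against 13.45, 12.42, 12.30, 12.50 and 12.19 in WT. The MPP groups lay apart, and the GMP groups overlapped, WT GMP 1 being the highest library of all. The difference was 0.86 ± 0.26 (SE, adjusted p = 0.0164) in MPP and 0.23 ± 0.25 in GMP (95% interval -0.29 to 0.75, adjusted p = 0.574). Single libraries decided the GMP value: it was 0.0045 without T2F3 GMP 2, 0.46 without T2F3 GMP 3 and 0.45 without WT GMP 1, none of which passed, and -0.026 with the ribosomal level in the model. The MPP call was lost without T2F3 MPP 2 (0.77, adjusted p = 0.0704), without T2F3 MPP 3 (0.81, adjusted p = 0.0603) and with the ribosomal level in the model (0.14, adjusted p = 0.495).

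Clec5a and Clec4a2 passed no genotype test. Clec5a, the DAP12-coupled receptor, was at 6.99, 7.26 and 7.13 in T2F3 MPP, against 6.77, 7.03, 7.18 and 6.82 in WT MPP. Its GMP values were 9.46, 9.67 and 9.08 in T2F3, against 9.33, 8.96, 9.22, 9.26 and 9.15 in WT. The genotypes overlapped in both populations, with a difference of 0.17 in MPP (95% interval -0.12 to 0.46, adjusted p = 0.315) and 0.22 in GMP (-0.05 to 0.50, adjusted p = 0.269). The GMP difference was 0.089 without T2F3 GMP 2 and 0.38 without T2F3 GMP 3, and the MPP difference was 0.11 without T2F3 MPP 2 or WT MPP 1 and -0.024 with the ribosomal level in the model; none of these passed.

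Clec4a2, the inhibitory receptor DCIR, was at 7.30, 7.70 and 7.47 in T2F3 MPP, against 7.07, 7.18, 7.39 and 6.97 in WT MPP. Its GMP values were 9.95, 10.22 and 9.31 in T2F3, against 9.92, 8.95, 9.19, 9.56 and 9.02 in WT. Groups overlapped in both populations. The MPP difference was 0.34 (95% interval -0.13 to 0.81, adjusted p = 0.224). The GMP difference was 0.50 (95% interval 0.05 to 0.95, adjusted p = 0.126), and single libraries moved it both ways: it passed without WT GMP 1 (0.65, adjusted p = 0.0187) or T2F3 GMP 3 (0.76, adjusted p = 0.0279), and was 0.30 without T2F3 GMP 2 (adjusted p = 0.485). With the ribosomal level in the model, the MPP difference was -0.17 (adjusted p = 0.55).

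**Figure D2:**
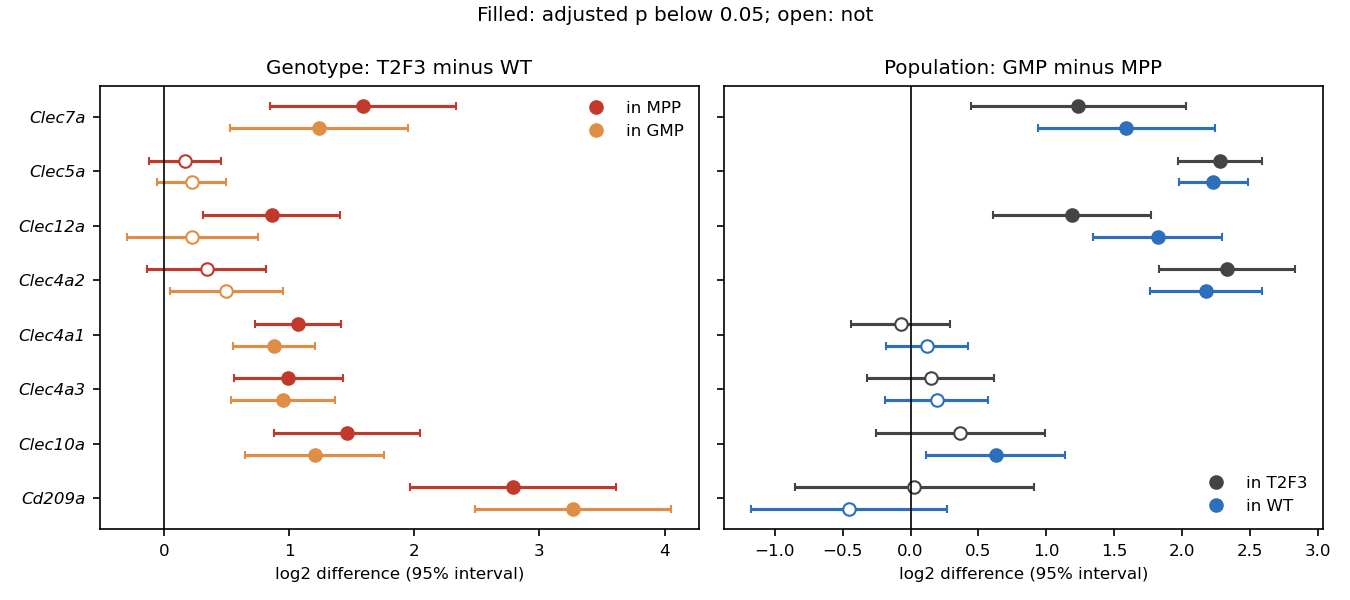
Log2 differences of the 8 genes with 95% intervals, T2F3 minus WT within MPP and within GMP on the left, and GMP minus MPP within T2F3 and within WT on the right. The largest genotype differences belong to Cd209a (2.79 in MPP and 3.27 in GMP), and the largest population steps to Clec5a (2.28 in T2F3 and 2.23 in WT) and Clec4a2 (2.33 in T2F3 and 2.18 in WT).

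The genotype effects of the 2 populations were set against each other in a test of their difference. None of the 8 genes passed, 0 had an unadjusted p below 0.05, and 2.26% of all tested genes passed in either direction (60.9% of them positive, or 74.5% after median centring). The difference of effects, GMP minus MPP, ran from -0.63 ± 0.36 (SE) for Clec12a (95% interval -1.39 to 0.12, adjusted p = 0.336) to 0.48 ± 0.54 for Cd209a (95% interval -0.66 to 1.62, adjusted p = 0.635). These intervals leave room for effects of the 2 populations that differ by more than 1 log2 unit. The larger count of calls in MPP therefore does not show a larger effect there.

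The second question was how the genes changed between MPP and GMP in each genotype. In T2F3, 4 of the 8 were higher in GMP and 0 lower, against 10.5% higher and 11.7% lower among all tested genes. In WT, 5 were higher and 0 lower, against 25.4% and 23.2% of all tested genes; 52.2% of the genes that passed in WT were higher, or 42.2% after median centring, under which 4 of the 8 passed. The median difference of the 8, GMP minus MPP, was 0.78 in T2F3 and 1.11 in WT, against 0.01 and 0.03 over all tested genes. In both genotypes the genes that rose included the activating receptors Clec5a and Clec7a and the inhibitory receptors Clec12a and Clec4a2.

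Clec5a averaged 9.40 ± 0.30 in T2F3 GMP and 7.12 ± 0.13 in T2F3 MPP (SD), a 4.86-fold step (2.28 ± 0.14 log2, SE, adjusted p = 2.02e-08). In WT it averaged 9.18 ± 0.14 in GMP and 6.95 ± 0.19 in MPP, a 4.69-fold step (2.23 ± 0.12, adjusted p = 1.09e-09). Clec4a2 averaged 9.82 ± 0.47 in T2F3 GMP and 7.49 ± 0.20 in T2F3 MPP, a step of 2.33 ± 0.24 (adjusted p = 2.16e-06). Its WT means were 9.33 ± 0.41 in GMP and 7.15 ± 0.18 in MPP, a step of 2.18 ± 0.20 (adjusted p = 2.01e-07). These are the clearest population differences of the 8, with every GMP library above every MPP library.

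Clec12a averaged 12.80 ± 0.45 in T2F3 GMP and 11.61 ± 0.24 in T2F3 MPP, and 12.57 ± 0.51 in WT GMP and 10.75 ± 0.21 in WT MPP (SD). Its step was 1.19 ± 0.28 in T2F3 (SE, adjusted p = 0.00437) and 1.82 ± 0.23 in WT (adjusted p = 6.19e-06). Clec7a rose by 1.24 ± 0.38 in T2F3 (adjusted p = 0.0247) and 1.59 ± 0.31 in WT (adjusted p = 4.75e-04). Both had GMP libraries above all MPP libraries of the same genotype. The T2F3 step of Clec7a was no longer called without T2F3 GMP 2 (0.84, adjusted p = 0.116), T2F3 MPP 1 (0.98, adjusted p = 0.124) or T2F3 MPP 3 (1.20, adjusted p = 0.0733). Clec10a rose by 0.63 ± 0.24 in WT (adjusted p = 0.0416), a call lost in 11 of 21 alternatives, including leaving out WT MPP 1, 3 or 5 or WT GMP 1, 2 or 5 (adjusted p from 0.0676 to 0.0879). With the ribosomal level in the model, the WT step was 0.90 for Clec7a (adjusted p = 0.00200) and 0.40 for Clec10a (adjusted p = 0.27). In T2F3 its difference was 0.37 ± 0.29 (adjusted p = 0.444), but 0.85 without T2F3 MPP 2 (adjusted p = 0.00450), 0.077 without T2F3 MPP 1, 0.16 without T2F3 MPP 3 and 0.11 without T2F3 GMP 2 (adjusted p from 0.81 to 0.917).

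Cd209a, Clec4a1 and Clec4a3 passed no population test. The differences of Cd209a were 0.03 ± 0.41 in T2F3 (SE, 95% interval -0.85 to 0.91, adjusted p = 0.975) and -0.45 ± 0.34 in WT (-1.18 to 0.27, adjusted p = 0.283). Clec4a1 differed by -0.07 ± 0.17 in T2F3 (-0.44 to 0.29) and 0.12 ± 0.14 in WT (-0.18 to 0.42). Clec4a3 differed by 0.15 ± 0.22 in T2F3 (-0.32 to 0.61) and 0.19 ± 0.18 in WT (-0.19 to 0.57). With quantile normalization the WT steps of Clec4a1 (0.47, adjusted p = 0.0145) and Clec4a3 (0.50, adjusted p = 0.0183) passed.

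**Figure D3:**
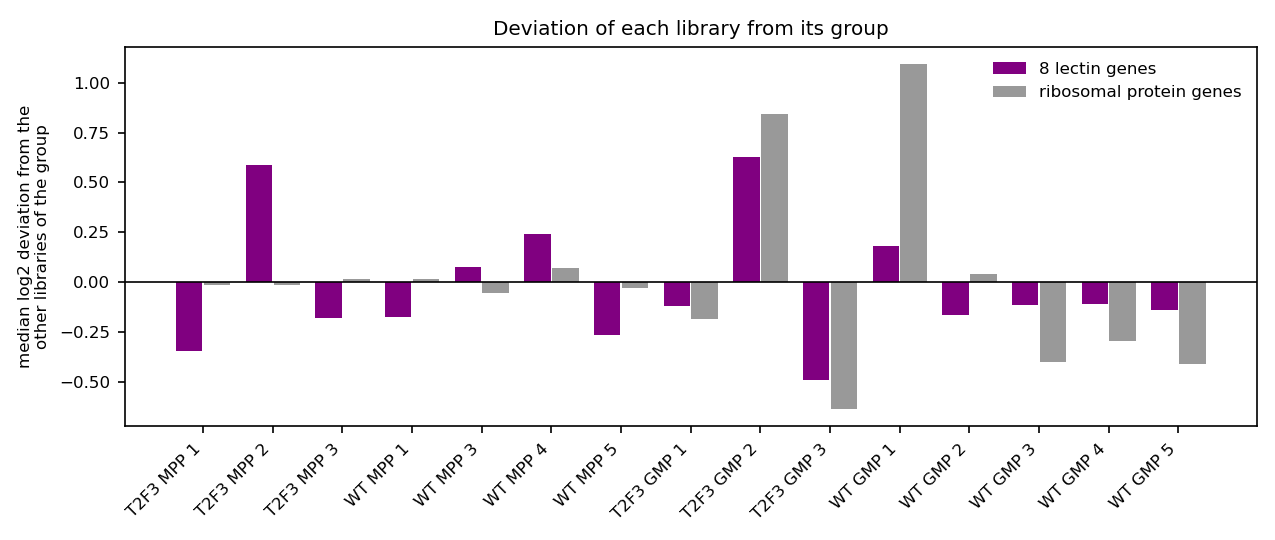
Median deviation of each library from the mean of the other libraries of its group, for the 8 lectin genes and for 76 ribosomal protein genes (log2). T2F3 GMP 2 is high for both (0.63 and 0.84), T2F3 GMP 3 is low for both (-0.49 and -0.64), and T2F3 MPP 2 is high for the lectin genes (0.59) with a ribosomal deviation of -0.02.

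Levels of other blood cell markers moved with the genotype. Of 9 conventional dendritic cell markers, 9 rose in T2F3 in each population, and their log2 summed level was 15.28 to 16.14 in T2F3 MPP and 12.43 to 13.37 in WT MPP, and 14.87 to 15.06 in T2F3 GMP and 11.78 to 12.11 in WT GMP. Genes of the MHC class II pathway, which presents antigen, are part of this list. They had its highest values, so the sum mainly follows them. Because values are not comparable between genes, each marker sum is read only between libraries. Of 14 tested monocyte and macrophage markers, 11 rose and 1 fell in T2F3 MPP, and 9 rose in T2F3 GMP. Their summed level was 14.64 to 15.30 in T2F3 MPP and 13.49 to 13.89 in WT MPP, and 15.69 to 16.29 in T2F3 GMP and 14.98 to 15.30 in WT GMP. The part of these cells, or of their genes in progenitors, in the lectin differences was not tested. Of 4 tested plasmacytoid dendritic cell markers, 0 passed in MPP and 1 was lower in T2F3 GMP.

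Late neutrophil markers (12 tested) moved mainly between populations. Their summed level was 16.54 to 18.63 in T2F3 GMP and 13.66 to 14.77 in T2F3 MPP, and 15.49 to 17.39 in WT GMP and 13.27 to 14.07 in WT MPP. Between genotypes, 1 rose and 1 fell in T2F3 MPP, and 1 rose in T2F3 GMP. These counts are not above the shares over all tested genes, of which 20.7% rose and 19.6% fell in T2F3 MPP. In T2F3 GMP 9.25% of all tested genes rose and 6.04% fell. Erythroid markers were lower in T2F3, 4 of 4 tested in each population, and Hbb-bt was listed at 0 in every library. B cell markers were lower for 4 of 5 tested in MPP and 3 in GMP, and of 3 tested T and NK cell markers 1 was lower in T2F3 MPP. The part of these markers in the lectin steps was not tested.

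Genes whose pattern was most like each lectin gene were found as those with the smallest root mean square difference over the 15 libraries, after centring each gene on its own mean, among 11364 tested genes. Cd209a was nearest to Adam23 (0.40), the largest nearest distance of the 8, and Clec10a to Depdc7 (0.25) and Arl5c (0.27). The distances were not scaled to the spread of each gene, and Cd209a also had the largest SD of the 8 over the 15 libraries (1.65). Clec7a was nearest to Mgst1 (0.27) and to Tyrobp (0.28), which encodes DAP12, and Clec12a to Prdx5 (0.20) and Rgcc (0.21). Clec5a was nearest to F10 (0.18) and the neutrophil elastase gene Elane (0.20). Clec4a2 was nearest to its paralog Clec4a4 (0.20) and Mcemp1 (0.23), Clec4a1 to Dse (0.15) and Elovl7 (0.17), and Clec4a3 to Slc2a6 (0.20) and Tlr1 (0.21). Within the set, Clec5a and Clec4a2 were nearest to each other (0.20), as were Clec4a1 and Clec4a3 (0.20). These values describe the 15 libraries, which share the 4 groups, and carry no test.

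Genes that neighbour the lectin genes in the genome did not share a single pattern. In the annotation order of GRCm38.p6, used for gene order only, the DCIR cluster runs Clec4a1, Clec4a3, Clec4a4, Clec4b1, Clec4a2, Clec4b2 and Clec4n, the last with too low a mean to be tested. Clec4a4, a DCIR paralog, was higher in GMP in both genotypes (2.03 in T2F3 and 1.81 in WT, log2), and its genotype differences of 0.34 in MPP and 0.56 in GMP did not pass (adjusted p = 0.197 and 0.0714). Clec4b1 rose with the genotype (1.33 in MPP, adjusted p = 6.26e-04, and 0.85 in GMP, adjusted p = 0.0205) and between populations (0.94 in T2F3 and 1.43 in WT). Clec4b2 was higher in GMP (2.31 in T2F3 and 2.21 in WT), and its genotype differences of 0.48 in MPP and 0.58 in GMP did not pass (adjusted p = 0.257 and 0.248). The genotype tests were thus passed by Clec4a1 and Clec4a3, which are adjacent, and Clec4b1, and the population tests by Clec4a4, Clec4b1, Clec4a2 and Clec4b2.

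The Dectin-1 cluster runs Clec12a, Clec12b, Clec1b, Clec9a, Clec1a, Clec7a and Olr1, with Clec12b and Clec1b too low to be tested. Clec9a, a dendritic cell receptor for dead cells, rose by 2.44 ± 0.21 (SE, adjusted p = 3.85e-07) in T2F3 MPP and 2.72 ± 0.20 (adjusted p = 1.36e-07) in T2F3 GMP, and was lower in GMP than in MPP (-0.76 in T2F3 and -1.04 in WT). Clec1a rose by 1.72 ± 0.22 in MPP (adjusted p = 2.00e-05) and 2.12 ± 0.21 in GMP (adjusted p = 2.08e-06). Olr1, the oxidized lipoprotein receptor, fell by 0.56 in T2F3 MPP (adjusted p = 0.0190) and differed by -0.44 in GMP (adjusted p = 0.0815), while rising in GMP in both genotypes (1.88 in T2F3 and 1.77 in WT). Clec12a and Clec7a rose in T2F3 MPP and were higher in GMP than in MPP in both genotypes. Mgl2, the paralog next to Clec10a, rose by 0.60 in T2F3 MPP (adjusted p = 0.0394, groups overlapping), and its difference of -0.53 in GMP did not pass (adjusted p = 0.101). Reads shared between Clec10a and Mgl2 cannot be separated.

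**Figure D4:**
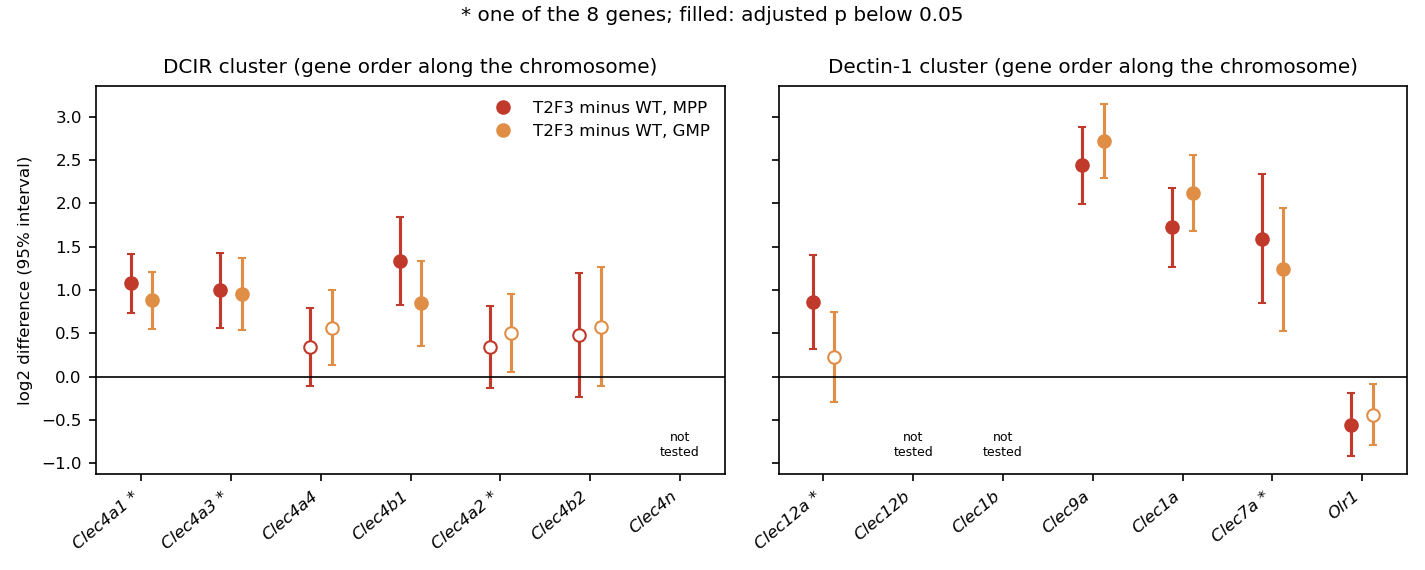
Log2 differences, T2F3 minus WT, of the genes of the DCIR cluster and of the Dectin-1 cluster in genome order, in MPP and GMP. Filled symbols passed an adjusted p of 0.05, and stars mark the 3 and 2 of the 8 lectin genes that lie in these clusters. Clec9a rises by 2.44 in MPP and 2.72 in GMP beside Olr1, which differs by -0.56 and -0.44.

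Beyond the 8 genes, 49 other C-type lectin genes were listed and 28 were tested. In T2F3 MPP 12 rose and 5 fell, with a median difference of 0.43 against -0.02 over all tested genes, of which 20.7% rose and 19.6% fell. In T2F3 GMP 8 rose and 0 fell, with a median of 0.23, against 9.25% and 6.04% of all tested genes. The 5 that fell in MPP are near the share over all genes. Cd207, the langerin gene, rose by 3.81 ± 0.19 in MPP (SE, adjusted p = 8.96e-10), at 7.01 ± 0.22 in T2F3 and 3.20 ± 0.22 in WT (SD). It rose by 2.81 ± 0.18 in GMP (adjusted p = 5.00e-08). Like Clec4a1 and Clec4a3, Cd207 had WT group means under 4 (3.20 in MPP and 3.28 in GMP) and was kept through its T2F3 values. It is in the counts and medians above, but is not independent support for higher levels in T2F3. Selp, the P-selectin gene, fell by 1.66 ± 0.21 in T2F3 MPP (adjusted p = 1.81e-05). None of the 28 passed the test of the difference of effects.

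The signalling genes of these receptors were followed in a list of 29, of which 28 were tested. In T2F3 MPP 10 rose and 2 fell, with a median difference of 0.19, where 20.7% of all tested genes rose and 19.6% fell. In T2F3 GMP 6 rose and 0 fell, with a median of 0.22, where 9.25% of all tested genes rose and 6.04% fell. The adaptor gene Fcer1g, the Fc receptor gamma chain, rose by 1.07 ± 0.15 in MPP (SE, adjusted p = 4.61e-05) and 0.65 ± 0.14 in GMP (adjusted p = 0.00446). Relb, an NF-kB subunit, rose by 0.72 ± 0.13 in MPP (adjusted p = 6.90e-04) and 0.95 ± 0.13 in GMP (adjusted p = 5.13e-05). Map3k14, the NF-kB inducing kinase, rose by 0.47 ± 0.10 in GMP (adjusted p = 0.00310).

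Tyrobp, the adaptor gene that Clec5a needs, and Syk and Card9, which act below Dectin-1, were picked after their values were seen. Tyrobp rose by 1.28 in T2F3 MPP (adjusted p = 0.00127) and 0.78 in T2F3 GMP (adjusted p = 0.0392), and Syk fell by 0.55 in T2F3 MPP (adjusted p = 0.00301). In GMP the Syk difference was -0.17 (adjusted p = 0.359). Card9 differed by 0.15 in MPP and -0.18 in GMP, T2F3 minus WT (adjusted p = 0.15 and 0.139). Card9 was higher in GMP than in MPP, by 1.00 in T2F3 and 1.33 in WT (adjusted p = 5.24e-07 and 1.26e-09). The other gene of the list that fell in T2F3 MPP was Rela (-0.38, adjusted p = 0.0357).

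**Figure D5:**
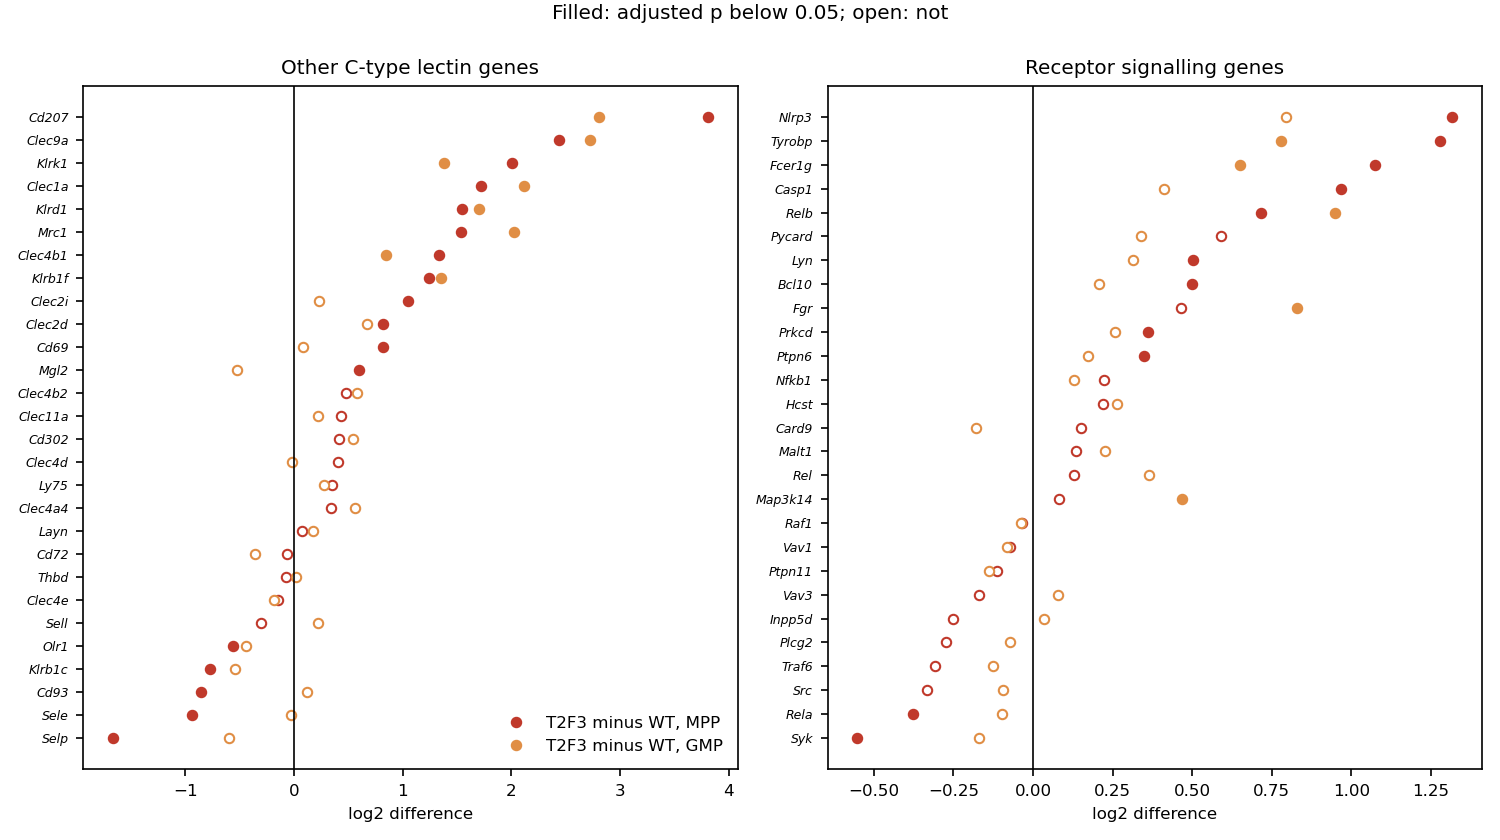
Genotype differences, T2F3 minus WT in log2, of other C-type lectin genes and of receptor signalling genes, in MPP and in GMP. Cd207 and Clec9a lie farthest to the higher side in both populations (3.81 and 2.44 in MPP), and Selp lies farthest to the lower side in MPP (-1.66). Cd207 was kept in the test through its T2F3 values.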

How the data were processed

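Per the labels' protocols, the RNA-seq kit kept strand. Log2 expression values of 24424 Entrez gene IDs in 15 libraries were deposited by the authors in 1 table, whose name marks them as regularized log values. STAR, Bowtie, HOMER, DESeq2 and, as build, mm9 are named in the submitters' processing notes, with no version or role. Without counts, neither depth nor a counting error can be given. Symbols came from the NCBI gene table of GRCm38.p6 (24345 of 24424 IDs matched), and promoter windows from RefSeq on that build. No coordinates of the expression table are printed. The other 41 of the 56 samples, profiles of hydroxymethylcytosine and their inputs, were not analysed here.

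A single limma 3.58.1 fit in R 4.3.3 was made for genes averaging at least 4 over the 15 libraries, with a coefficient for each of the 4 groups and moderated variances (eBayes, using a trend and the robust option). P-values are two-sided and were adjusted over 12133 genes by the Benjamini-Hochberg method. The model was tested on simulated data with independent normal noise. That simulation held no shifts shared by the genes of a library, so it does not cover them. Differences carry limma's SE and its 95% interval, and group levels the SD over libraries. Replicate numbers were not taken to pair the samples, since the labels do not say that they do. Across genes, the deviations of the MPP and GMP libraries of one number and genotype correlated at 0.055 to 0.464. All were positive, though not all passed 0.1, so they do not show that the libraries are unpaired. Named genes were the 8 lectin genes, the 3 genes of smallest p from the list of other C-type lectins and from the list of signalling genes in each genotype contrast, and the 2 nearest genes of each; others are said to be picked after their values were seen, except cluster neighbours and gate genes, which were fixed by position or gate. Some genes taken by this rule are not reported here, in the text or the plots. The lectin genes, lists and tests were chosen with earlier results of these data known. The alternatives tried were each library left out, WT GMP 1 and T2F3 GMP 2 left out together, the compared groups alone, median centring, quantile normalization, array weights, a plain eBayes step, a pseudocount of 8 on the linear scale, all genes or those with a mean of at least 6, the ribosomal level as a covariate, and the replicate number as a block. A block by genotype and number, taken as 1 animal, was added after the data were seen. Tables and figures used Python 3.11.15, pandas 2.3.3 and Matplotlib 3.10.9.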

Additional observations from a re-analysis of the deposited data

Results flagged for a closer look

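Of 16 groups of 4 or 5 WT libraries (8 genes in 2 populations), 3 held a library whose gap to the nearest other, over the range of the group, was above Dixon's critical value, which chance exceeds in about 1 group in 20. Clec7a in WT GMP 1 was at 9.98, against 8.43 to 8.72 in the other 4 WT GMP libraries. Clec12a in WT GMP 1 was at 13.45, against 12.19 to 12.50 in the others. Ribosomal protein genes in WT GMP 1 deviated from its group by a median of 1.09 (log2), and their part in these values was not tested. Clec10a in WT MPP 4 was at 7.10, against 6.83 to 6.85 in the other 3 WT MPP libraries, a gap of under 0.3 on the log2 scale.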

How the results depend on the processing

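Depth is unknown, genes with few reads are shrunken on this scale, and 3 T2F3 libraries per group limit the precision. The genotype calls of Cd209a, Clec4a1 and Clec4a3 in both populations and the population calls of Clec5a and Clec4a2 in both genotypes held in every alternative that tested them. Since Clec4a1 and Clec4a3 were kept through their T2F3 values, their genotype calls are not independent support for higher levels in T2F3. With a minimum mean of 6, 3 lectin genes passed in MPP and 2 in GMP, because Cd209a, Clec4a1 and Clec4a3 were then not tested. With each library left out in turn, 5 to 6 genes passed between genotypes in MPP, 4 to 6 in GMP, 3 to 5 between populations in T2F3 and 4 to 5 in WT, and 0 passed the difference of effects. With the replicate block, Clec12a in MPP (0.72, adjusted p = 0.0746) and Clec7a in GMP (1.07, adjusted p = 0.0557) no longer passed, and the calls over all genes numbered 2732 in MPP and 1302 in GMP, against 4889 and 1855. With the compared groups alone, Clec7a in GMP was at adjusted p = 0.0673 and Clec4a2 passed in MPP (adjusted p = 0.0353). With array weights Clec4a2 passed in MPP (0.38) and in GMP (0.59). The cause of these changes was not tested.

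Differences that changed sign were all uncalled. With the ribosomal level as a covariate these were Clec5a (-0.024) and Clec4a2 (-0.17) in MPP, Clec12a in GMP (-0.026), and the differences of effects of Clec7a (0.27) and Clec4a3 (0.062). The difference of effects of Clec4a3 also changed sign with median centring (0.011), the replicate block (0.062) and a block by animal (0.018), and that of Cd209a with array weights (-0.19). That of Clec5a did so with a block by animal (-0.0061) and without WT GMP 1 and T2F3 GMP 2 (-0.045). With each library left out, differences of effects ran from -0.082 to 0.21 for Clec5a, -0.21 to 0.18 for Clec4a3, -0.55 to 0.23 for Clec10a and -0.038 to 0.42 for Clec4a2. The T2F3 population step changed sign with quantile normalization for Clec4a1 (0.14), with array weights for Clec4a3 (-0.082), Clec10a (-0.038) and Cd209a (-0.61), and without WT GMP 1 and T2F3 GMP 2 for Clec4a3 (-0.019) and Cd209a (-0.25). With each library left out this step ran from -0.44 to 0.67 for Cd209a, -0.16 to 0.093 for Clec4a1 and -0.019 to 0.37 for Clec4a3.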
